A study of Mus musculus with 24 samples.

Results

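The genes described here are 10 apoptosis regulators, taken by symbol from the deposited table of 55450 genes. They are the prosurvival genes Bcl2, Bcl2l1, Bcl2l2 and Mcl1, the pore-forming effector Bak1, the BH3-only genes Bid, Bcl2l11 and Bmf, and the cellular inhibitor of apoptosis genes Birc2 and Birc3. The RNA came from mice with intact Thumpd1 (WT) or homozygous for its knockout (KO), and 3 tissues were sequenced, the cerebellum, the liver and the testes, with 4 libraries in each of the 6 groups and 24 in all. Thumpd1 encodes the adapter protein that Nat10 needs to acetylate tRNA. The allele came from Cas9 and 2 guides to exons 1 and 4, injected into C57BL/6N eggs, and the line was kept on a C57BL/6 background, so that the gene was lost from the germline in every cell type of the KO animals. Animals were 6 to 12 weeks old and of either sex, and WT controls were littermates of the same age. Several edited lines were made, and which line each KO animal came from is not given in the sources used here, nor whether tissues with the same replicate number came from 1 animal. The labels name no other mutation and no treatment in any of these groups.

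Proteins of the BCL2 family control whether the outer mitochondrial membrane opens. Prosurvival members bind and hold back the effectors BAK and BAX, BH3-only proteins block the prosurvival members or activate the effectors directly, and once cytochrome c leaves the mitochondria it drives caspase activation through the apoptosome. The cellular IAP proteins made from Birc2 and Birc3 are ubiquitin ligases that act mainly at death receptors and in noncanonical NF-kappaB signalling, and in the testis balanced prosurvival and proapoptotic members of the BCL2 family are needed for spermatogenesis. Removal of surplus germ cells by apoptosis is a normal feature of that tissue.

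Total expected counts ranged from 16353797 to 37889615 per library. Thumpd1 itself fell from 22.4 ± 1.07 to 0.0563 ± 0.0464 CPM in cerebellum, where CPM is the expected count scaled to the total of its library, from 9.74 ± 0.401 to 0.0567 ± 0.0436 CPM in liver and from 25.2 ± 0.840 to 0.955 ± 0.200 CPM in testes (mean ± SD, n = 4), so each library carried the genotype of its label. Summed markers matched the labelled tissues. The 6 hepatocyte markers summed to between 44918 and 79282 CPM in the liver libraries, the 8 granule cell markers to between 4239 and 4787 CPM in the cerebellum libraries, and the 6 elongating spermatid markers to between 7821 and 11346 CPM in the testes libraries and to at most 0.130 CPM elsewhere. In cerebellum, choroid plexus markers summed to 16.6 to 1023 CPM in WT libraries and 20.2 to 344 CPM in KO libraries, with means of 513 and 182 CPM. The ranges overlapped, and with so wide a scatter within a genotype a difference between the genotypes could not be judged.

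Birc2 and Birc3 are paralogs that lie side by side on the minus strand of chromosome 9, at chr9:7818227-7837064 and chr9:7848699-7873186 (mm10, GENCODE M21), with 11634 bases between them. Bcl2l2 lies at chr14:54883377-54888234 on the plus strand. The 250 bases before the RefSeq transcription start of these genes are printed because Bcl2l2 and Birc3 were the members that rose in KO testes, and because Birc2 is the neighbour with which Birc3 can be compared. Letters run 5′ to 3′ on the strand of the gene, and capitals mark each CpG dinucleotide.
Bcl2l2, chr14:54883175-54883424, plus strand: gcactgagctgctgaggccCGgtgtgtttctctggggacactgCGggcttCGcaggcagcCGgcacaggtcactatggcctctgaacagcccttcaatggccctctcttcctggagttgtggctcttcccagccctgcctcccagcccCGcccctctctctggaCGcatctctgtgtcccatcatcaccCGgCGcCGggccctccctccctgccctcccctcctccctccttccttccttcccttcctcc
Birc3, chr9:7873171-7873420, minus strand: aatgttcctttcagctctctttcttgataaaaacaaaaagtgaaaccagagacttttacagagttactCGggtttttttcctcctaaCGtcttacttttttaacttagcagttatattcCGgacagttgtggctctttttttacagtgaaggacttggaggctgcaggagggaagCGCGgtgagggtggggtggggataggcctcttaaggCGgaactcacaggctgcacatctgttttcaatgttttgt
Birc2, chr9:7837058-7837307, minus strand: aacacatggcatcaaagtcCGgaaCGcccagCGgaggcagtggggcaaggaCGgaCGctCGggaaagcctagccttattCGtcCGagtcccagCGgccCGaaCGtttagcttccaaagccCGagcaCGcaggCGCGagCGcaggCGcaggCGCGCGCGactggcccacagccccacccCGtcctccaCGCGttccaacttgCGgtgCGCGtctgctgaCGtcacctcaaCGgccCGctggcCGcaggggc
RefSeq gives Birc2 a second promoter at chr9:7836807-7837056, not printed, with 19 CpG dinucleotides at 61.2% G and C. The printed Birc2 window held 31 CpG dinucleotides at 68.4% G and C, the Birc3 window 6 at 43.6%, and the Bcl2l2 window 9 at 66.0%. The median over 32817 RefSeq mouse promoters was 6, with quartiles of 2 and 16, so both Birc2 windows lay above the upper quartile while Birc3 was at the median. RefSeq gave 16 promoters for the 10 members. An NF-kappaB consensus, searched on both strands, matched 1 of the 16, the second promoter of Bcl2l1, with GGGGGTCTCC at bases -242 to -233 from the start, and 7.25% of all promoters held a match. The CEBP-ATF motif TGATGNAA, bound by ATF4 dimers, matched none of the 16 and 3.45% of all promoters. These matches are descriptions of letters and not of binding, and no match means only that the letters are not in the 250 bases searched.

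Some exons of the members are shared with other genes, which limits how reads can be assigned. Of the 50-base windows in Bcl2l2 transcripts, 12.1% also occur in the readthrough gene Gm20521 on the same strand, and Gm20521 had 0.735 ± 0.181 CPM in testes of WT and 1.22 ± 0.198 CPM in testes of KO animals, far below Bcl2l2 itself. Opposite-strand exons overlap Bid (Bcl2l13, 16.4% of windows), Bak1 (Ggnbp1, 17.1%) and Bcl2 (D630008O14Rik, 5.08%). The library kit kept strand information, but the strand setting used in counting is not given in the sources used here, so the values of Bid, Bak1 and Bcl2 are treated as uncertain. Birc2 and Birc3 share 65 such windows, or 1.42% and 1.28% of their own, and Birc3 shares 4.19% of its windows with Gm7019, a gene at 0.0416 CPM or less in the mean of every group.

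The levels in WT tissue give the setting for the KO comparisons. Levels between genes are given as CPM per kilobase of merged exon. Mcl1, which encodes a short-lived prosurvival protein, was the most abundant of the 4 prosurvival transcripts in WT liver at 22.0 ± 1.27 CPM per kb, against 8.97 ± 0.974 for Bcl2l1 (which encodes BCL-XL), 6.38 ± 0.405 for Bcl2l2 (which encodes BCL-W) and 0.283 ± 0.0487 for Bcl2. In WT testes Bcl2l1 led at 26.7 ± 0.664 CPM per kb, followed by Mcl1 at 22.4 ± 0.381, Bcl2l2 at 8.34 ± 0.405 and Bcl2 at 0.273 ± 0.0513. In WT cerebellum Bcl2l1 stood at 27.3 ± 1.19 CPM per kb and Bcl2l2 at 25.1 ± 0.495, then Mcl1 at 18.7 ± 0.821 and Bcl2 at 3.15 ± 0.172. Mcl1 thus led in liver and Bcl2l1 in testes, Bcl2l1 and Bcl2l2 stood close together in cerebellum, and Bcl2 was the lowest of the 4 in all 3 tissues.

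Within the summed CPM per kb of the 4 prosurvival genes, Mcl1 made up 58.5% ± 2.74 in WT liver, 38.8% ± 0.406 in WT testes and 25.2% ± 0.400 in WT cerebellum. Bcl2l2 took 33.7% ± 0.586 of the sum in WT cerebellum, 17.0% ± 1.37 in WT liver and 14.4% ± 0.780 in WT testes. The share of Bcl2 was 4.24% ± 0.198 in WT cerebellum and under 1% in the WT mean of the other tissues. A share within a library does not depend on how libraries are scaled against each other. In KO testes the share of Bcl2l2 was 18.7% ± 1.06 and that of Mcl1 35.8% ± 1.09. The share of Bcl2 was 0.581% ± 0.0156 against 0.472% ± 0.0860 in WT. None of these 3 ranges overlapped its WT range, where 28.6% of all genes tested in testes separated the genotypes in CPM. Shares of 1 sum depend on each other, so these are not 3 separate results. The summed level of the 4 genes was 64.6 ± 3.14 CPM per kb in KO and 57.7 ± 0.572 in WT testes, and the level of Mcl1 itself differed by 0.01 on the log2 scale, so its smaller share went with a larger sum. In KO liver and KO cerebellum each of the 4 shares overlapped its WT range except that of Bcl2l1 in cerebellum, with 36.2% to 37.4% in the WT libraries against 37.8% to 40.3% in the KO libraries.

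**Figure D1:**
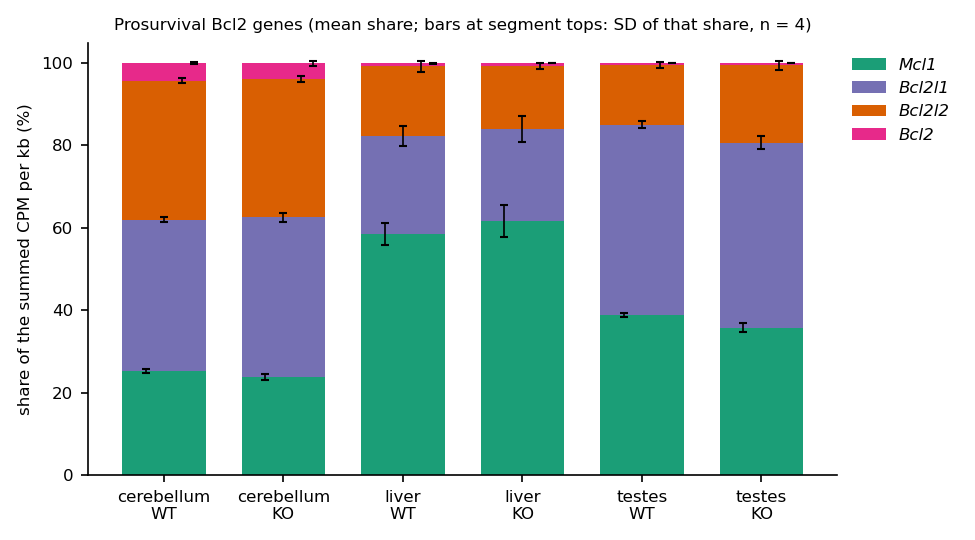
Stacked bars give the mean share (%) of Mcl1, Bcl2l1, Bcl2l2 and Bcl2 in the summed CPM per kb of the 4 genes, for each tissue and genotype (n = 4); the error bar at the top of a segment is the SD of that gene's own share. Mcl1 fills 58.5% of the WT liver bar and 25.2% of the WT cerebellum bar, and the Bcl2l2 segment of testes grows from 14.4% in WT to 18.7% in KO.

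Differences between WT tissues were tested in a fit over all 24 libraries with TMM scaling (limma-voom, Benjamini-Hochberg over 22678 genes). Between cerebellum and liver 9 of 10 members passed the threshold, where 85.3% of all genes did. The other WT contrasts called all 10 members, testes against liver (89.7% of all genes) and testes against cerebellum (89.3%). With the filter passed in each tissue, added after seeing the data, the counts in the same order were 8, 10 and 10, Bcl2l11 losing its call between cerebellum and liver. These shares are close to the background, so differing between tissues is no property of the members. The choice of scaling moved the median log2 difference of all genes between tissues, for testes over liver from 0.87 with TMM to -0.26 with quantile normalization and 1.81 with library totals. Only directions that held under all of these scalings, against 0 and against the median of all genes, are given below.

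Bcl2 was the prosurvival gene with the largest WT differences, at 28.8 ± 1.56 CPM in cerebellum against 2.59 ± 0.446 in liver and 2.50 ± 0.470 in testes. The log2 difference of cerebellum over liver was 2.30 ± 0.138 (SE) and that of testes over cerebellum -3.28 ± 0.138. Bcl2l2 was likewise higher in cerebellum, with a log2 difference of 0.78 ± 0.0589 over liver and of -1.33 ± 0.0565 for testes over cerebellum. Both were thus highest in the neural tissue, and the order of liver and testes was not settled for either gene, since library totals gave a difference near 0 for Bcl2 and turned the sign for Bcl2l2. Mcl1 was higher in liver than in cerebellum, by -1.42 ± 0.0637 on the log2 scale for cerebellum over liver, and higher in testes than in cerebellum, by 0.52 ± 0.0634. For Bcl2l1, cerebellum exceeded liver by 0.42 ± 0.0749, and the order of testes and cerebellum changed sign with the scaling.

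Among the proapoptotic members, Bid had the widest spread. Its WT level was 9.57 ± 1.88 CPM in liver, 4.14 ± 0.436 in testes and 0.905 ± 0.123 in cerebellum, and the log2 difference of cerebellum over liver was -4.56 ± 0.221. BID is cleaved by caspase 8 and carries the death receptor signal to the mitochondria. Bak1 read lower in cerebellum than in liver (-1.55 ± 0.107) and lower than in testes (1.08 ± 0.102 for testes over cerebellum). Ggnbp1 on the opposite strand was also lowest in cerebellum and by far highest in testes, so this order is uncertain. The part of its reads in the Bak1 values was not tested. Bcl2l11, which encodes BIM, was higher in testes than in cerebellum by 1.12 ± 0.120, and its difference between cerebellum and liver was -0.36 ± 0.147 with TMM but turned positive with library totals. Bmf, whose protein binds the dynein light chain DLC2, was lowest in testes at 2.20 ± 0.366 CPM, with differences of -2.66 ± 0.348 over liver and -2.38 ± 0.339 over cerebellum. In WT liver it read 4.62, 4.44, 12.7 and 11.6 CPM, a wide scatter between libraries of 1 group, and no order of cerebellum and liver could be given for it.

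The neighbouring IAP genes differed in the place of liver, which was the lowest tissue for Birc2 and the highest for Birc3, while testes exceeded cerebellum for both, for Birc3 by 1.29 with TMM and by 0.38, which did not pass, with quantile normalization. Birc2 was highest in testes at 107.9 ± 8.49 CPM, then cerebellum at 55.9 ± 0.887 and liver at 11.0 ± 0.661, with log2 differences of 2.35 ± 0.0826 for testes over liver and 1.15 ± 0.0878 for cerebellum over liver. Birc3 was highest in liver at 10.2 ± 0.572 CPM against 3.67 ± 0.388 in testes and 1.79 ± 0.336 in cerebellum, with a difference of -2.40 ± 0.112 for testes over liver. Per kilobase, Birc2 exceeded Birc3 by 1.19 ± 0.112 times in WT liver, by 35.1 ± 7.32 times in WT cerebellum and by 32.3 ± 2.57 times in WT testes. In KO testes this ratio was 21.3 ± 2.27, from 17.9 to 22.8, against 29.9 to 35.1 in WT testes.

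**Figure D2:**
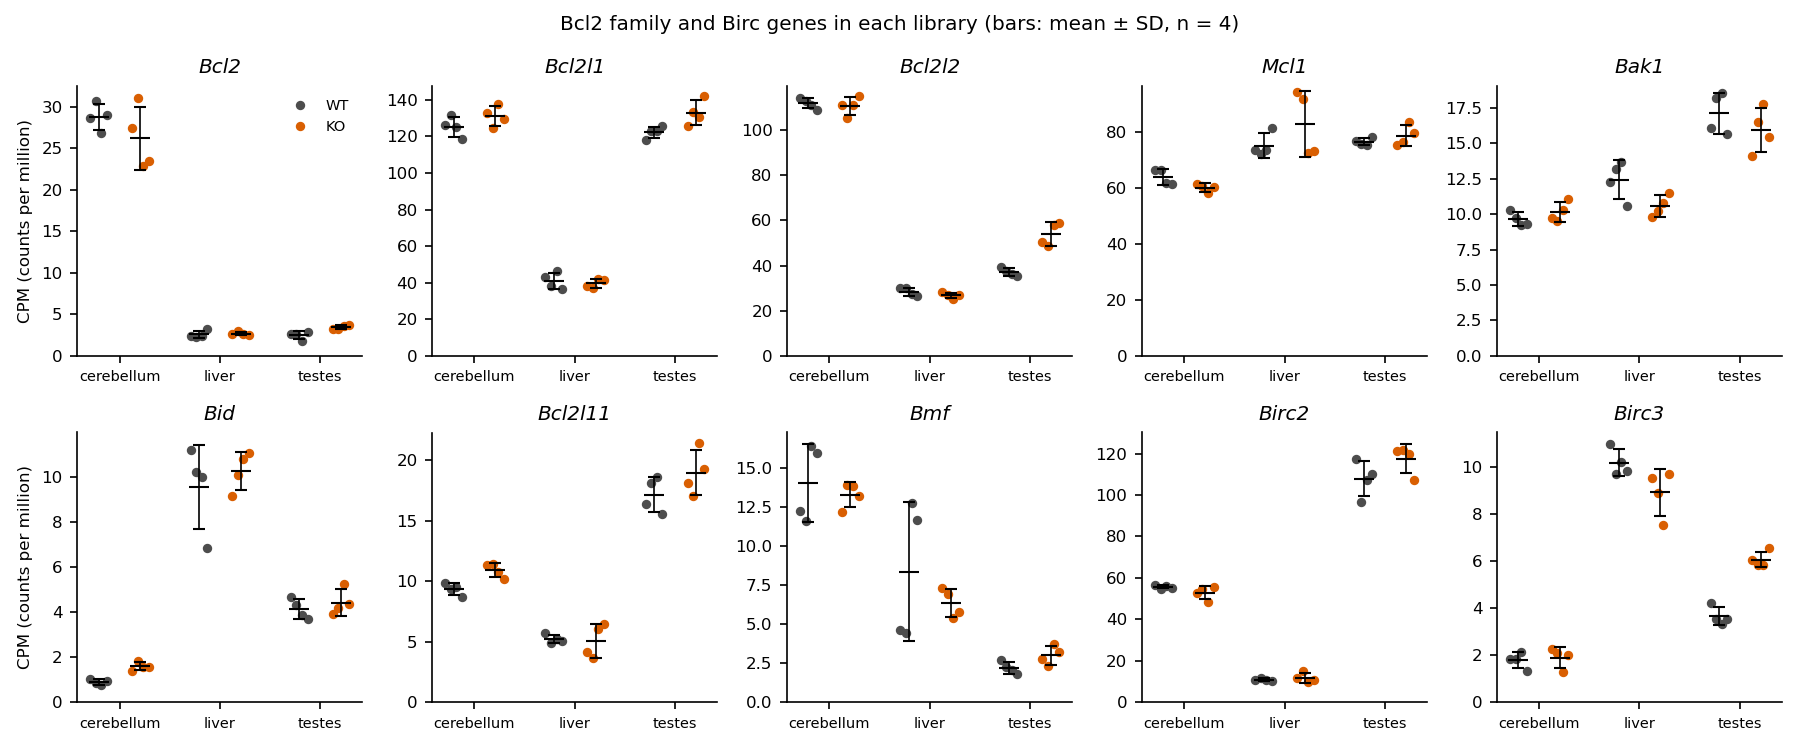
Each panel is 1 member, each point 1 library in CPM, WT in grey and KO in orange, with the mean and SD of the 4 libraries of a group. Birc2 is highest in testes and Birc3 in liver, and the testes KO points of Bcl2l2 (48.5 to 59.1 CPM) and of Birc3 (5.83 to 6.55 CPM) lie above their WT points.

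In KO testes, Bcl2l2 and Birc3 rose, and no member passed the test as lower. Bcl2l2 encodes BCL-W, a prosurvival protein needed for spermatogenesis. It read 39.5, 37.8, 36.1 and 35.4 CPM in the WT and 50.5, 48.5, 58.1 and 59.1 CPM in the KO libraries. Every KO library was above every WT library. The fitted log2 KO/WT difference was 0.47 ± 0.0724 (SE, 95% interval 0.32 to 0.63, 1.39-fold, adjusted p = 0.00311, limma-voom). Adding the reads of the overlapping Gm20521 to Bcl2l2, a choice made after seeing the data, gave 0.48 with an adjusted p of 0.00288, within a range of 4.54e-07 to 0.0177 over all alternatives including libraries left out.

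Birc3 encodes cIAP2, an NF-kappaB target and ubiquitin ligase. Its testes values were 4.23, 3.54, 3.35 and 3.55 CPM in WT and 6.05, 5.83, 5.84 and 6.55 CPM in KO. The KO libraries again lay above all WT libraries, with little scatter among themselves. The log2 difference was 0.61 ± 0.102 (95% interval 0.38 to 0.83, 1.52-fold, adjusted p = 0.00434). Its neighbour Birc2 read 117, 96.8, 107 and 110 CPM in WT and 121, 122, 120 and 107 CPM in KO testes, groups that overlapped, with a difference of 0.12 ± 0.0644 and an adjusted p of 0.196. It passed the threshold with sample quality weights alone (0.15, adjusted p = 0.0236, in a range of 0.0236 to 0.589).

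Calls of 2 among 10 members matched the background in testes, since 20.5% of the 19329 genes tested there passed. The WT and KO libraries of 4 members did not overlap, Bcl2, Bcl2l1, Bcl2l2 and Birc3, against 28.6% of all genes. Bcl2 read 2.68, 2.64, 1.81 and 2.86 CPM in WT and 3.23, 3.23, 3.55 and 3.74 CPM in KO testes, so all KO libraries were higher, yet its difference of 0.37 ± 0.145 had an adjusted p of 0.0849. For Bcl2l1 the WT libraries spanned 118 to 125 CPM and the KO libraries 126 to 142 CPM, and the difference of 0.12 ± 0.0542 had an adjusted p of 0.118. The other differences were 0.35 ± 0.164 for Bmf, -0.21 ± 0.0878 for Bak1, 0.04 ± 0.0841 for Bcl2l11, -0.02 ± 0.114 for Bid and 0.01 ± 0.0517 for Mcl1, with adjusted p-values from 0.109 to 0.935. The median over the 10 members was 0.12, beside a median of 0.0001 over all genes tested, and 8 members had a positive difference.

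Cell type markers moved with the genotype in testes. The 8 Sertoli cell markers summed to between 1070 and 1272 CPM in WT and between 1367 and 1980 CPM in KO testes, and 6 of the 8 passed the test as higher. Sums of the 6 round spermatid markers were 1053 to 1096 CPM in WT and 848 to 1020 in KO, with 3 of 6 lower, and those of the 6 elongating spermatid markers were 10753 to 11346 and 7821 to 10018, with 4 of 6 lower. The 5 stellate or mesenchymal markers summed to 102 to 121 CPM in WT against 128 to 172 in KO libraries, with 2 of 5 higher, and the 8 microglia and macrophage markers to 220 to 225 against 173 to 202, with 1 of 7 tested lower. The 7 lymphocyte markers summed to 7.07 to 8.23 CPM in WT and 5.46 to 6.71 in KO testes, with 1 of 2 tested lower, and the Purkinje cell list, of which 1 gene was tested and was higher, to 63.4 to 72.7 and 82.2 to 112. The spermatocyte list overlapped between genotypes at 691 to 759 and 726 to 794 CPM, with 0 of 6 called. In tissue RNA, fewer cells of a type and less RNA per cell cannot be told apart, and the part that these shifts have in the values of Bcl2l2 and Birc3 was not tested.

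**Figure D3:**
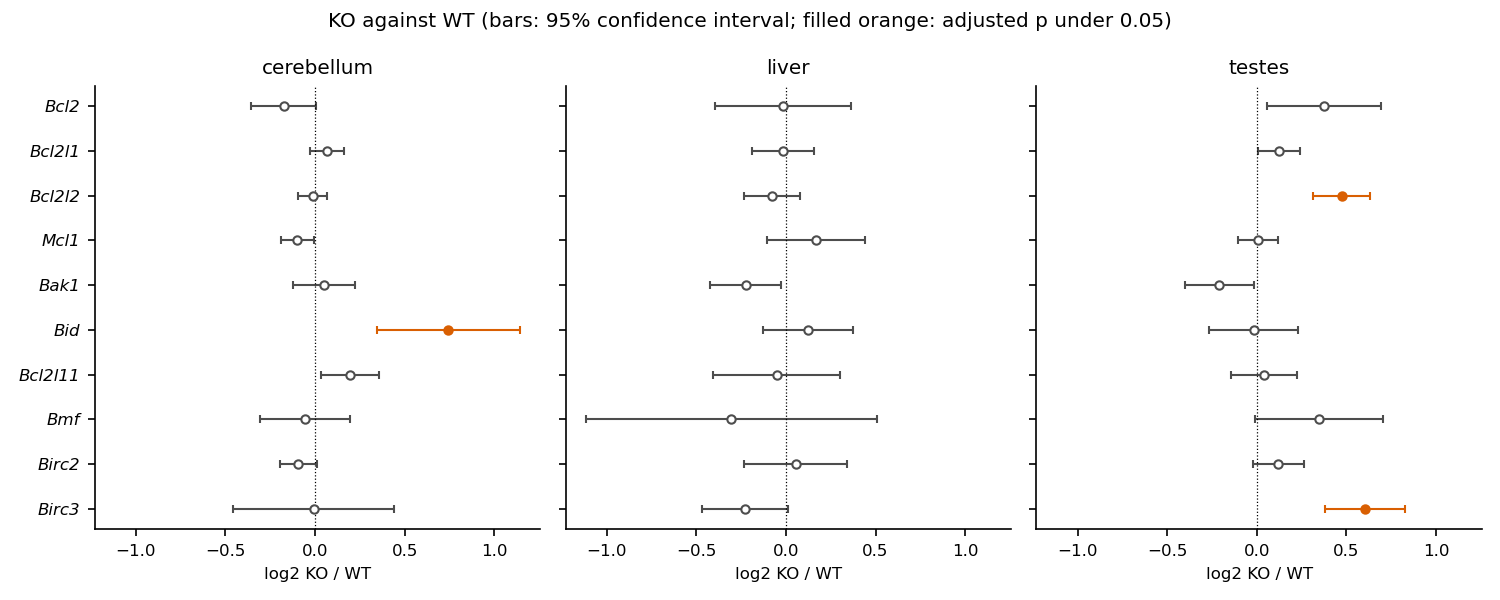
Points are the fitted log2 KO/WT difference of each member in each tissue with its 95% confidence interval (limma-voom, 8 libraries per tissue); filled orange points have an adjusted p under 0.05. Bid is the filled point in cerebellum (0.74), kept by the filter through the KO libraries in which it was higher. None is filled in liver, and Bcl2l2 (0.47) and Birc3 (0.61) are filled in testes.

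In KO cerebellum, Bid was the member that passed the test, at a very low level. Its libraries read 1.04, 0.849, 0.762 and 0.969 CPM in WT and 1.41, 1.83, 1.58 and 1.58 CPM in KO, which corresponds to 14 to 24 expected counts in WT and 25 to 31 in KO. All KO libraries were above all WT libraries. The log2 difference was 0.74 ± 0.185 (95% interval 0.34 to 1.14, 1.67-fold, adjusted p = 0.0336). Only 1 WT library reached the filter of 1 CPM, so Bid was kept through the KO group in which it was higher. Its call therefore cannot support a rise. The call was lost in 6 of 8 fits with 1 library left out (WT replicate 1, 2, 3 or 4, or KO replicate 7 or 8), with adjusted p-values from 0.0356 to 0.0868 over the 8 fits, and with no filter (0.0822) or 1 fit over 24 libraries (0.254), while DESeq2 gave Bid no adjusted p. Bcl2l13 on the opposite strand went the other way, from 54.4 ± 2.14 to 48.9 ± 2.00 CPM.

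This was 1 of 10 members, where 6.44% of the 16225 genes tested in cerebellum passed. Bcl2l11 also separated the groups, with 9.83, 9.38, 9.53 and 8.67 CPM in WT and 11.3, 11.4, 10.7 and 10.2 CPM in KO cerebellum, as did 13.8% of all genes. Its difference of 0.20 ± 0.0747 had an adjusted p of 0.131. Bcl2 read 28.7, 30.7, 26.8 and 29.0 CPM in WT and 27.4, 31.1, 22.9 and 23.5 CPM in KO cerebellum, and its difference of -0.18 ± 0.0831 (adjusted p = 0.216) became -0.25 with an adjusted p of 0.0319 when KO replicate 6, the highest library, was left out. Values for Mcl1 (-0.10 ± 0.0418), Birc2 (-0.09 ± 0.0474), Bcl2l1 (0.07 ± 0.0432), Bmf (-0.06 ± 0.115), Bak1 (0.05 ± 0.0799), Bcl2l2 (-0.01 ± 0.0373) and Birc3 (-0.01 ± 0.208) had adjusted p-values from 0.170 to 0.988. For Bcl2l2 the 95% interval ran from -0.09 to 0.07, so that a rise of the size seen in testes lay outside it. The median over the members was -0.011, against -0.0059 over all genes. Granule cell markers summed to 4726 to 4787 CPM in WT and 4239 to 4511 CPM in KO cerebellum (4 of 8 lower), microglia and macrophage markers to 51.4 to 60.0 and 60.2 to 65.1 CPM (0 of 7 tested called), and forebrain neuron markers to 7.93 to 10.3 and 21.7 to 41.9 CPM (1 of 4 tested higher). The liver endothelial list summed to 28.9 to 29.9 and 32.0 to 37.3 CPM (0 of 2 tested called) and the spermatogonia list to 245 to 251 and 267 to 282 CPM (3 of 4 tested higher), while oligodendrocyte markers overlapped at 2526 to 3031 and 2936 to 3138 CPM (2 of 6 higher). The part of these lists in the Bid value was not tested.

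In KO liver, no member passed the test with limma-voom, edgeR or DESeq2, while 5.91% of the 12816 genes tested passed. An unadjusted p under 0.05 was found for 1 of 10 members and for 23.3% of all genes. That member was Bak1, which read 12.2, 13.2, 13.7 and 10.6 CPM in WT and 9.82, 10.2, 10.8 and 11.5 CPM in KO, with a log2 difference of -0.22 ± 0.0895 (adjusted p = 0.163). No member separated the WT from the KO libraries, against 12.7% of all genes. Mcl1 was uneven in KO liver, at 94.5, 91.8, 72.7 and 73.2 CPM against 73.7, 72.1, 73.7 and 81.7 CPM in WT, and KO replicates 5 and 6 were high while 7 and 8 were within the WT range. The same KO replicates differed in Bcl2l11, at 4.16 and 3.64 CPM in replicates 5 and 6 and 6.07 and 6.48 CPM in replicates 7 and 8, where WT spanned 4.92 to 5.74 CPM. Replicates 5 and 6 also had the smallest liver totals, 19958739 and 18145725, and the part of depth was not tested. Mcl1 had a difference of 0.17 ± 0.125 and Bcl2l11 of -0.05 ± 0.161. Birc3 was at 11.0, 9.71, 10.2 and 9.82 CPM in WT and 9.54, 8.90, 7.52 and 9.72 CPM in KO liver, with a difference of -0.23 ± 0.109 (adjusted p = 0.239). The others were -0.30 ± 0.369 for Bmf, 0.12 ± 0.114 for Bid, -0.08 ± 0.0704 for Bcl2l2, 0.05 ± 0.130 for Birc2, -0.02 ± 0.0789 for Bcl2l1 and -0.02 ± 0.172 for Bcl2. Intervals ranged from -0.23 to 0.08 for Bcl2l2 to -1.12 to 0.51 for Bmf, so the precision differed greatly between members, and the median over them was -0.034 against -0.0031 over all genes.

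Whether the KO effect differed between tissues was tested directly, as a difference of the log2 KO/WT differences in the fit over 24 libraries. For Bcl2l2 the effect in testes exceeded that in liver by 0.60 ± 0.0889 (adjusted p = 0.000538) and that in cerebellum by 0.51 ± 0.0789 (adjusted p = 0.000825). Both contrasts use the same testes libraries and are not independent. The rise of Bcl2l2 was thus larger in testes than in each of the other tissues, and both differences passed in every alternative run. For Birc3 the testes effect exceeded the liver effect by 0.91 ± 0.152 (adjusted p = 0.00172), whereas the difference from cerebellum, 0.61 ± 0.237, had an adjusted p of 0.133. The KO effect on Bid in cerebellum was 0.70 ± 0.304 above that in liver (adjusted p = 0.261), and the testes effect minus the cerebellum effect was -0.75 ± 0.321 (adjusted p = 0.178). For Bcl2, with KO/WT differences of 0.37 in testes and -0.18 in cerebellum, the difference between the tissues was 0.59 ± 0.187 (adjusted p = 0.0663), so a different response of Bid or Bcl2 between tissues was not established.

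By these tests 2 members differed between testes and liver (7.03% of all genes), 1 between testes and cerebellum (6.14%), and none between cerebellum and liver (2.49% of all genes), where 2 members had an unadjusted p under 0.05, as did 15.8% of all genes, and edgeR and DESeq2 called none. Requiring the expression filter in each tissue, which was added after seeing the data, kept the calls of Bcl2l2 (adjusted p = 0.000252 and 0.000498) and of Birc3 against liver (0.00207) and added Bid for testes against cerebellum (-0.83, adjusted p = 0.0177, in a range of 0.0131 to 0.276). Bid passed that filter in cerebellum only through the KO libraries, in which it was higher, so that its gained call cannot support a difference. With the same filter the adjusted p was 0.0561 for Bid between cerebellum and liver, and 0.0670 for Bcl2 and 0.126 for Birc3 between testes and cerebellum. DESeq2 also called that Bid difference (-0.86). Quantile normalization added Bcl2 and Birc3, and leaving out cerebellum KO replicate 6 added Bcl2 (adjusted p = 0.0299, in a range of 0.0299 to 0.184).

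Apoptosis genes outside the members were read from a list of 63 genes in 11 roles. In testes 54 were tested and 16 passed, or 29.6%, of which 12 were higher and 4 lower, where 20.5% of all genes passed. The 6 with the smallest p were Usp9x (0.41 ± 0.0701, adjusted p = 0.00449), Huwe1 (0.48 ± 0.0993, 0.00874), Cycs (0.49 ± 0.105, 0.0106), Xiap (0.33 ± 0.0750, 0.0128), Tnfrsf10b (-0.43 ± 0.113, 0.0219) and Nfkb2 (0.61 ± 0.161, 0.0233), by limma-voom. USP9X removes ubiquitin from MCL1 and HUWE1 adds it, while the Mcl1 transcript itself differed by 0.01 between KO and WT. Cycs encodes somatic cytochrome c, Xiap a direct caspase inhibitor, Tnfrsf10b a death receptor, and Nfkb2 the noncanonical NF-kappaB precursor, whose exons overlap other genes on the opposite strand and whose value is uncertain for that reason. Leaving out single testes libraries gave from 3 to 16 calls in the list, with 9 without WT replicate 1 or 2, 5 without WT replicate 3 or KO replicate 7, 3 without WT replicate 4 and 7 without KO replicate 8, so the count depends on single libraries.

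Of the 6 IAP genes of that list tested in testes, 4 passed as higher in KO, where 20.5% of all genes passed in either direction, namely Xiap, Birc6 (0.28 ± 0.0811, adjusted p = 0.0333), Naip2 (0.77 ± 0.208, 0.0258) and Naip6 (0.57 ± 0.179, 0.0448), the last 3 singled out after their values were seen. Naip2 read at most 0.936 CPM in WT and at least 1.13 CPM in KO testes, so it was tested only because the KO group, in which it was higher, reached the filter of 1 CPM, and it cannot support that count. Birc6 overlaps an antisense gene, and Naip2 and Naip6 are close copies whose reads may be shared between them. The other two of the 6 did not pass, and the counts by role rest on the same libraries as the count of the whole list. No caspase passed in testes (0 of 6), and neither of the 2 other effector genes did. Among the 8 genes of the wider BCL2-like group, 7 were tested and 3 were lower.

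In cerebellum 47 of the 63 genes were tested and 2 passed, or 4.26% beside 6.44% of all genes. Both were lower, and the one with the smaller p was Bnip3l, which encodes a mitochondrial BCL2-like protein of mitophagy, at -0.20 ± 0.0439 (adjusted p = 0.0218). Leaving out 1 library gave 0 calls without WT replicate 1, 3 or 4 or KO replicate 5 or 8, 1 call without KO replicate 7 and 5 calls without KO replicate 6. In liver 50 were tested and 2 passed, or 4.00% beside 5.91%, both higher, Casp6, an effector caspase, at 0.48 ± 0.0873 (adjusted p = 0.0106) and Bok, a BAX-like effector, at 0.43 ± 0.0998 (0.0316). Without WT replicate 1 or 2 or KO replicate 5, 6 or 8, the list held 1 call. Lymphocyte markers summed to 3.86 to 4.01 CPM in WT and 6.06 to 7.60 CPM in KO liver, with 1 of 3 tested higher. The lists of 2 brain cell types, which hold genes that liver expresses, also separated the genotypes there, the astrocyte list at 1245 to 1455 and 1192 to 1198 CPM (0 of 4 tested called) and the Purkinje cell list at 158 to 164 and 172 to 181 CPM (1 of 2 higher). The part of these shifts in the liver values was not tested. These lists do not show the members' neighbours in the pathway moving more often than other genes in either tissue.

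**Figure D4:**
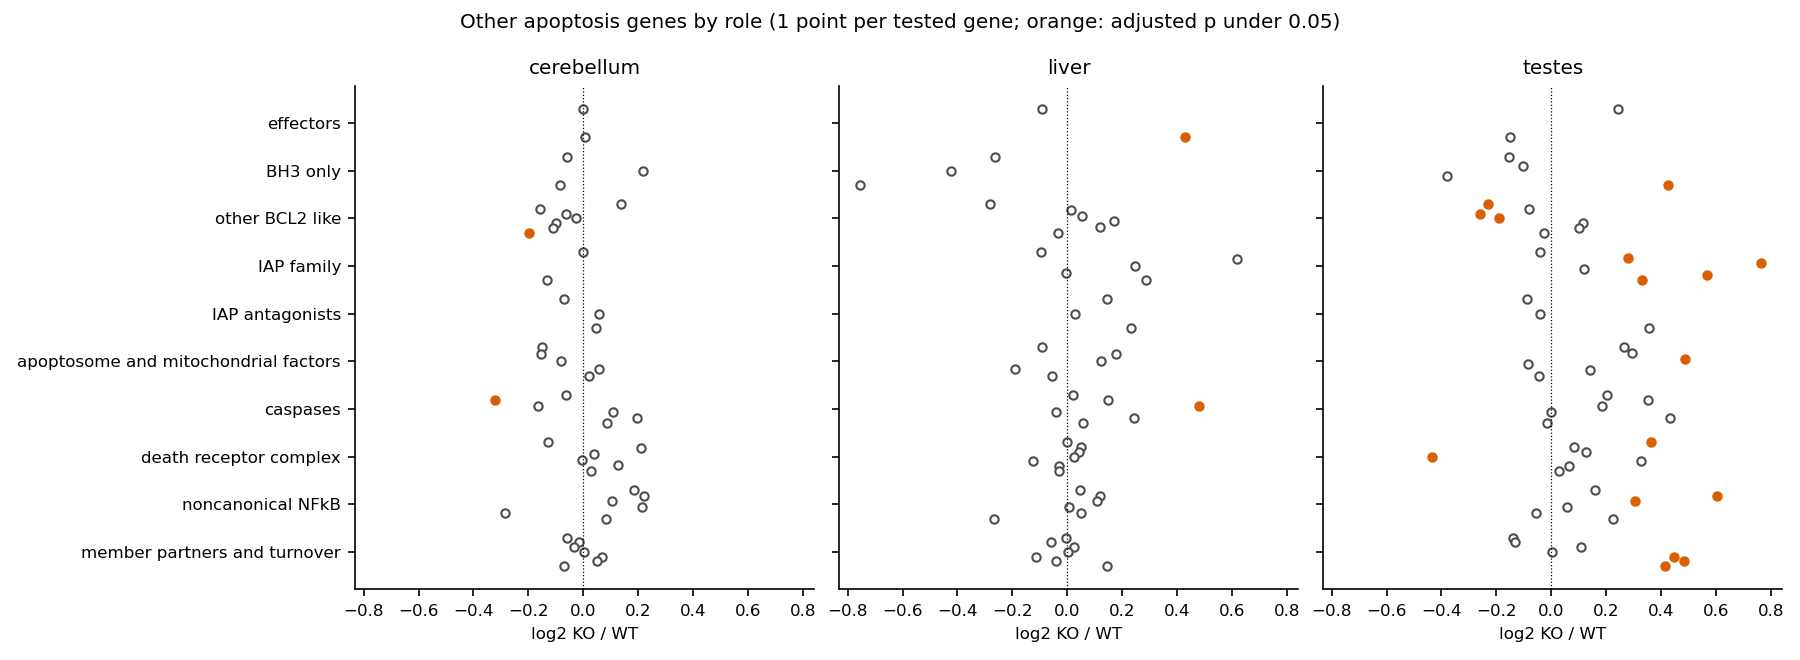
Each point is 1 tested gene of the 63 other apoptosis genes, placed by role and by its log2 KO/WT difference in each tissue; filled orange points have an adjusted p under 0.05. Filled points number 2 in cerebellum, both below 0, 2 in liver, both above 0, and 16 in testes, among them 4 of the 6 tested IAP genes, these 4 above 0 and Naip2 among them kept by the filter through the KO libraries alone.

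Across the 24 libraries, the genes whose log2 CPM followed each member most closely were named as a description of its pattern. For Bcl2l2 these were Pag1 (Pearson r = 0.989) and Glg1 (0.986), for Birc3 Cmtm6 (0.989) and A1cf (0.987), for Birc2 Usp37 (0.996) and Vps13a (0.996), and for Bid Stk16 (0.993) and Eef1a1 (0.992). Ktn1 and Ccnt2 were closest to Bcl2 (0.992 each), Zfp687 (0.976) and Rnf148 (0.975) to Bcl2l1, Idi1 and Serp1 to Mcl1 (0.993 each), Ppp6r1 (0.987) and Eif3f (0.985) to Bak1, Snrnp200 (0.972) and Smarcc1 (0.970) to Bcl2l11, and Gm37728 (0.969) and Fnip2 (0.968) to Bmf. The named genes were those ranked highest for each member among 22678 genes, and the libraries share tissues, depth and composition. After the mean of each of the 6 groups was taken away, the same pairs correlated at 0.44 to 0.87, the highest being Smarcc1 with Bcl2l11 and the lowest Cmtm6 with Birc3.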

How the data were processed

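Libraries were prepared with a stranded total RNA kit after ribosomal RNA removal and sequenced as paired ends. The authors aligned reads with STAR to mm10 and deposited RSEM expected counts per gene (GENCODE M21), not normalized; tool versions and strand setting are not given in the sources used here. The 24 columns matched the labels and 0 were left over. CPM used the library total. In each tissue, genes with at least 1 CPM in at least 4 of 8 libraries were quantile normalized and compared with limma-voom (limma 3.58.1, R 4.3.3), Benjamini-Hochberg threshold 0.05. Tissue contrasts used all 24 libraries, TMM factors (edgeR 4.0.16), limma-voom and the same filter over 24. For edgeR and DESeq2 1.42.0, expected counts were rounded. On simulated data the fit over 24 libraries made more false calls than its threshold allows, and a filter passed in each tissue did not, so the latter is given beside it. The simulation gave every gene the same spread between libraries, so it cannot tell how many calls are false in these data with either filter. All 10 members passed every filter. Genes were named by a fixed rule: all members, up to 6 called apoptosis genes per tissue of smallest p, and the 2 genes most correlated with each member. Birc6, Naip2 and Naip6 were named outside the rule. One gene that the rule names is not reported here. Members, lists and tests were chosen with earlier results of these data known. The study calls its RNA-seq samples biological replicates; the labels do not identify the animals. The 3 counts of a total are at most 0.183 CPM, the limit a count of 0 allows, for counting error only.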

Additional observations from a re-analysis of the deposited data

Results flagged for a closer look

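By the test of the difference itself, the KO effect differed between testes and liver for Bcl2l2 and Birc3, as for 7.03% of all genes. Between testes and cerebellum it differed for Bcl2l2, as for 6.14% of all genes. The Birc3 difference there, 0.61, did not pass (adjusted p = 0.133, limma-voom). For Bcl2l2 the log2 KO/WT difference was 0.60 larger in testes than in liver and 0.51 larger in testes than in cerebellum, and for Birc3 it was 0.91 larger in testes than in liver. In 3 of the 60 groups of 4 libraries examined (10 members, 6 groups), 1 library stood apart from the other 3 by more than Dixon's 95% critical value, and chance alone flags about 1 in 20 groups. WT replicate 4 of liver read 3.26 CPM for Bcl2, where the other WT livers read 2.33 to 2.42, and 81.7 CPM for Mcl1, where the others read 72.1 to 73.7. KO replicate 8 of testes read 107.3 CPM for Birc2, where the others read 119.9 to 121.6. Without that liver library the KO/WT difference of Bcl2 in liver was 0.11 in place of -0.02.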

How the results depend on the processing

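The calls of Bcl2l2 and Birc3 in testes, of both against liver and of Bcl2l2 against cerebellum held in every alternative run. Of 1656 member values recomputed with another setting or with 1 library left out, 1583 kept their direction and their side of the threshold, 15 lost and 10 gained a call, and 48 changed sign. Most of these values were differences between WT tissues, where most genes pass. The differences of KO effects among them covered only some pairs of member and contrast, chosen beforehand. The count is therefore no measure of how stable the KO results are. Depth limits Bid (14 to 31 expected counts per library) and Birc3 (25 to 46) in cerebellum, Bcl2 in liver (52 to 100) and Bcl2, Bmf and Birc3 in testes (54 to 214), and the stated causes of changed calls were not tested unless given here. Members called in cerebellum numbered 1 and became 0 with DESeq2, with no filter (more genes tested) and with 1 fit of 24 libraries, and 0 to 2 with 1 library left out. DESeq2 gave 0 because Bid had no adjusted p there. Of the other apoptosis genes, 2 were called in cerebellum, 1 with no filter, 0 with 1 fit of 24 libraries, and 0 to 5 with 1 library left out. In liver 2 were called, 1 with no filter, 5 with sample quality weights, and 1 to 3 with 1 library left out. In testes 16 were called, 8 with no filter, 22 with DESeq2 and 3 to 16 with 1 library left out. Members whose KO effect differed between testes and cerebellum numbered 1, and 3 with quantile normalization, 2 with DESeq2, 2 with the filter passed in each tissue, and 1 to 2 with 1 library left out.

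With the replicate number as a block (replicate block), 2 members passed for testes against cerebellum, Bcl2l2 and Bcl2 (0.59, adjusted p = 0.0483), and no other call of a member changed. The labels do not tie equal numbers to 1 animal. Same-numbered libraries of a genotype correlated at -0.03 to 0.05 across tissues after group means were removed. Of 24 pairs, 0 exceeded 0.1, and 6 libraries correlated best with their own number. The correlation within a block was 0.0916 in the block fit. Small correlations between unlike tissues cannot tell whether equal numbers are 1 animal, so the pairing stays unknown.

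Changes of sign among the KO/WT differences concerned values near 0 that were not called. Birc3 in cerebellum (-0.01) was 0.051 with TMM, 0.068 with edgeR, 0.069 with DESeq2, 0.018 with sample quality weights and 0.038 in 1 fit of 24 libraries. Bcl2 in liver (-0.02) was 0.065, 0.040, 0.044, 0.039 and 0.019 in the same order. Mcl1 in testes (0.01) was -0.020 with TMM and with edgeR, -0.024 with DESeq2, -0.039 with weights and -0.028 in 1 fit. Bid in testes (-0.02) was 0.040 with TMM, 0.039 with edgeR, 0.036 with DESeq2 and 0.034 in 1 fit. With weights Bcl2l1 in liver was 0.029, Bcl2l11 in liver 0.062 (0.0086 with TMM) and Bcl2l11 in testes -0.033. With 1 library left out the ranges were -0.030 to 0.0099 for Bcl2l2, -0.15 to 0.018 for Bmf and -0.13 to 0.18 for Birc3 in cerebellum, -0.079 to 0.11 for Bcl2, -0.072 to 0.050 for Bcl2l1, -0.16 to 0.056 for Bcl2l11 and -0.055 to 0.17 for Birc2 in liver, and -0.017 to 0.024 for Mcl1 and -0.094 to 0.032 for Bid in testes.

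Library totals, added after seeing the data, turned WT differences of cerebellum over liver for Bcl2l11 (0.84) and Bmf (0.90), of testes over liver for Bcl2l2 (0.39), Mcl1 (0.031) and Bak1 (0.46), and of testes over cerebellum for Bcl2l1 (-0.035, and -0.12 with quantile normalization). These follow from the scaling itself, which moved the median of all genes as given above.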
